A study of Homo sapiens with 18 samples.

Results

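The response of human fibroblasts to inflachromene (ICM) was described at the mRNA level, from 6 of the 18 libraries of the series: the 3 mRNA-seq libraries of ICM-treated cells and the 3 mRNA-seq libraries of young cells. All libraries came from IMR90, human fetal lung fibroblasts that the study describes as primary cells. Young cells were at low passage and dividing, ICM cells were low-passage cells given inflachromene, a compound whose known targets are HMGB1 and HMGB2, abundant DNA-bending proteins, and 3 old libraries came from high-passage, replicatively senescent cells and were set beside the other groups where another condition helped to read a value. The titles give the condition and replicate only. They state no dose or time of treatment and do not say whether young cells received the solvent of the compound, so that compound and solvent cannot be told apart here. The study describes its ribosome profiling, with matching mRNA-seq, as done on cells given ICM for 6 days. The level of a gene was the sum of its reads in the 5′ UTR, coding sequence (CDS) and 3′ UTR, given as CPM, counts per 1000000 reads, which are scaled to the library but not to gene length. CPM values were therefore compared between libraries and not between genes.

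A fibroblast that stops dividing for good while staying alive is called senescent. Its mRNA population is known to change in several ways together. The genes of DNA replication and mitosis, which are driven by E2F factors, B-MYB and FOXM1, fall silent. The CDK inhibitor p21, a product of the p53 target CDKN1A, rises, nuclear lamina and HMG protein genes fall, and secreted proteins such as interleukins, chemokines and matrix proteases change. A compound that reacts with cells can also engage stress programmes of its own, of which the antioxidant response of the transcription factor NRF2, the amino acid response of ATF4 and the sterol response of SREBP factors are the best known. Each of these programmes has a textbook set of target genes. The lists used below were built from such sets with earlier results of these data known. Their counts therefore describe the members chosen and are not tests of the sets.

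The 6 libraries held between 7903257 and 12849711 reads in coding genes, and 61.9% to 65.6% of these lay in the CDS. Between 12392 and 12938 genes had at least 10 reads in a library. The correlation of log CPM across genes was 0.9935 to 0.9955 among the 3 young libraries, 0.9953 to 0.9964 among the 3 ICM libraries and 0.9024 to 0.9064 between a young and an ICM library, and no library stood apart from its group. Of 14 fibroblast markers, 13 reached 1 CPM in at least 1 of the 6 libraries, against 2 of 9 epithelial, 2 of 6 endothelial, 2 of 8 blood cell and 3 of 5 muscle markers. The muscle markers that did were DES, at 52.98, 48.2 and 53.7 CPM in young and 19.9, 19.5 and 20.5 CPM in ICM, MYH11, at 32.5, 30.3 and 31.9 CPM and 9.99, 10.1 and 8.90 CPM, and MYOCD, given with the contractile genes below. The epithelial markers KRT14, SCGB1A1 and ESRP1, the endothelial markers CDH5 and ERG, the lymphocyte marker CD3E and the skeletal muscle markers MYOD1 and MYOG had no read in these libraries. As RNA came from whole cultures, fewer expressing cells and less RNA per cell cannot be told apart in any value below.

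Most genes that could be tested differed in level between ICM and young cells. Of 13177 genes past the filter on low counts, 9358 (71.0%) were called changed in ICM vs young at an adjusted p under 0.05 in edgeR's quasi-likelihood test, with 4599 higher (34.9%) and 4759 lower (36.1%). With an absolute log2 change over 0.6 also required, 2450 genes were higher (18.6%) and 2602 lower (19.7%). These percentages are the background for each list below. The replicates lay close together: the median standard error (SE) of a log2 change was 0.094, and the smallest log2 change that passed was 0.14 in size. In 9815 genes (74.5%) the 3 ICM libraries did not overlap the 3 young libraries. A gene is said to rise, fall or change below only where its adjusted p was under 0.05, and the log2 changes are those of the fit. Levels are given as the values of replicates 1, 2 and 3, and where nothing else is said the 3 ICM values lay all above or all below the 3 young values. The labels do not say that replicates were separate cultures, whereas the study describes 3 independent replicas of each condition. The p-values measure the spread between these libraries.

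The change was large in many genes and unevenly spread. A log2 change over 2 was reached by 356 of the called rises and 523 of the called falls, and one over 5 by 27 rises and 64 falls. The median log2 change over all genes tested was -0.0071, and the lower and upper quartiles were -0.47 and 0.45. All levels are relative to the library, so a change in the total mRNA of a cell would not show in these values. Genes called higher by over 0.6 held 11.7% to 11.8% of the reads of the young libraries and 29.1% to 29.8% of those of the ICM libraries, whereas genes called lower by over 0.6 went from 35.0% to 35.3% in young to 16.4% to 16.6% in ICM. Of all genes tested, 17 stood under 0.5 CPM in young and at 5 CPM or more in ICM, and 40 the other way round.

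**Figure D1:**
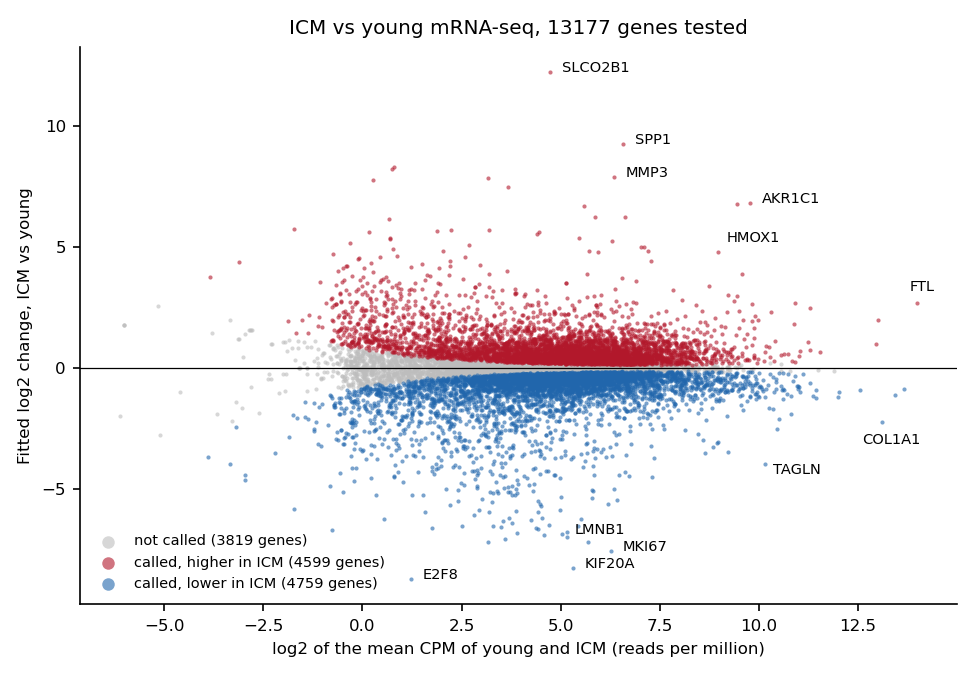
Fitted log2 change in ICM vs young (vertical axis) against the log2 of the mean CPM of the young and ICM groups (horizontal axis) for the genes tested, 1 point a gene, with 12 genes labelled and 1 gene without a read in both groups not drawn. The 4599 genes called higher (red) and the 4759 called lower (blue) were spread over the whole range of levels, the 64 falls beyond -5 all lay below 100 CPM, and FTL rose at the upper end of the range.

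The genes with the most reads were not the same in both conditions. In young cells the 5 genes with the highest CPM were IGFBP5, EEF1A1, COL1A1, COL1A2 and ACTG1, and in ICM cells they were FTL, FTH1, GAPDH, IGFBP5 and EEF1A1. FTL, the light chain of the iron storage protein ferritin, was at 4465, 4618 and 4022 CPM in the young libraries and 27998, 30463 and 25939.5 CPM in the ICM libraries (log2 change 2.69, SE 0.077). FTH1, the ferritin heavy chain, was at 3503, 3567 and 2912 CPM in young and 13016, 14404 and 12052 CPM in ICM (log2 change 1.98, SE 0.081). The ICM libraries lay above every young library for both chains. GAPDH, a glycolytic enzyme often used as a reference gene, also rose, from 5316, 5468 and 5153 CPM to 10431, 11186 and 9567 CPM (log2 change 0.97, SE 0.074). COL1A1, a chain of type I collagen, fell from 13265, 14909 and 15352 CPM to 3028, 2963 and 3201 CPM (log2 change -2.24, SE 0.083), while ACTG1, a cytoplasmic actin, fell from 5579.6, 5649 and 5647 CPM to 2504, 2409 and 2482 CPM (log2 change -1.19, SE 0.063).

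The largest rises joined drug and steroid handling with secreted proteins. SLCO2B1, a transporter that takes organic anions into cells, had no read in the 3 young libraries and stood at 49.5, 54.8 and 55.7 CPM in the ICM libraries, which made it at least 532-fold higher, against a floor of 3 reads over the young group. SPP1, the secreted matrix protein osteopontin, was at 0.62, 0.0872 and 0.286 CPM in young and 191, 196 and 186 CPM in ICM (log2 change 9.26, SE 0.16). CYP19A1, the aromatase that makes oestrogens from androgens, had 2 reads over the young group and 637 over the ICM group, a ratio of 266 with a 95% interval from 73.4 to 2203 that covers counting error only (exact binomial). SPP1 and CYP19A1 were near 0 in old cells too, at 0.323, 0.0741 and 0.185 CPM for SPP1 and 0, 0.0741 and 0.0927 CPM for CYP19A1. The matrix proteases MMP3 and MMP10, stromelysins that cut non-fibrillar matrix proteins, rose from 0.496, 0.872 and 0.572 CPM to 163, 173 and 149 CPM and from 0, 0.174 and 0.191 CPM to 26.7, 27.3 and 22.6 CPM. Of the 12 largest rises, 5 were aldo-keto reductases of NADPH-dependent carbonyl reduction, AKR1C1, AKR1C2, AKR1C3, AKR1C4 and AKR1B10, and 1 was the chemokine CXCL3, described below with their lists. These 12 genes were chosen for a large change without overlap, so a gap between their ICM and young libraries follows from that choice.

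**Figure D2:**
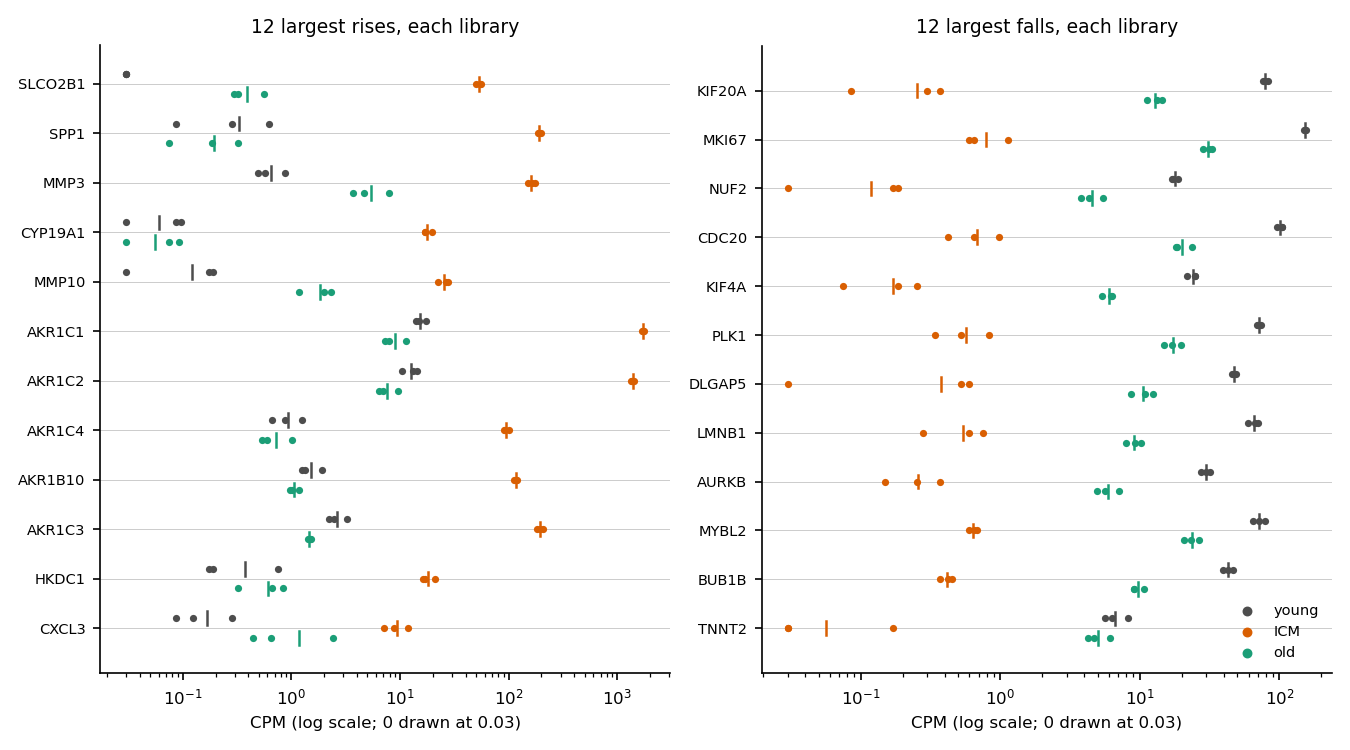
Level in CPM (log axis, values of 0 drawn at 0.03) of the 12 genes with the largest rise (left) and the 12 with the largest fall (right) in ICM vs young, among called genes with at least 5 CPM in the higher group and no overlap; points are single libraries of young, ICM and old cells, and short bars are means of 3. In the rises the old libraries lay below the ICM ones, and in the falls their means lay between those of young and ICM cells.

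Among the falls, mitotic genes dominated. KIF20A, a kinesin motor of the dividing spindle, was at 82.4, 79.2 and 76.4 CPM in young and 0.3, 0.37 and 0.0848 CPM in ICM (log2 change -8.24, SE 0.18). MKI67, the proliferation marker Ki-67, fell from 151, 155 and 152 CPM to 1.13, 0.648 and 0.594 CPM (log2 change -7.54, SE 0.13). Of the 12 largest falls, 10 were genes of mitosis or its transcription: KIF20A, MKI67, NUF2, CDC20, KIF4A, PLK1, DLGAP5, AURKB, MYBL2 and BUB1B. The other 2 were LMNB1, the lamin B1 of the nuclear lamina, which fell from 66.9, 59.2 and 69.97 CPM to 0.751, 0.278 and 0.594 CPM, and TNNT2, a troponin of muscle thin filaments. TNNT2 had 196 reads over the young group and 2 over the ICM group, a ratio of 117 with a counting interval from 32.0 to 975.

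The NRF2 targets rose without an exception. NRF2 is normally degraded through its partner KEAP1, and electrophiles or oxidants release it to bind antioxidant response elements before genes of glutathione and thioredoxin metabolism, NADPH supply, iron handling and conjugation. All 28 members of the list passed the filter and all 28 were called higher, 26 of them by over 0.6 (34.9% and 18.6% of all genes). The median log2 change was 2.07, against -0.0071 over all genes, and the members ranged from 0.30 to 6.80, the value of AKR1C1. The summed level of the list was 12128 to 13368 CPM in the young libraries and 57696 to 65503 CPM in the ICM libraries. In old vs young, 3 members were called higher and 20 lower (32.4% and 33.7% of all genes), and in ICM vs old all 28 were called higher (30.8% of all genes).

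The aldo-keto reductases, which reduce carbonyl groups of steroids, prostaglandins and reactive aldehydes, rose most within the list. AKR1C1 was at 13.9, 14.8 and 17.3 CPM in young and 1710.1, 1772 and 1679 CPM in ICM, AKR1C2 at 10.4, 13.1 and 14.4 CPM and 1369, 1435 and 1340.0 CPM, and AKR1B10 at 1.24, 1.92 and 1.33 CPM and 117, 119 and 111 CPM. Their log2 changes were 6.80 (SE 0.11), 6.76 (SE 0.11) and 6.23 (SE 0.12). The AKR1C genes are near-identical copies that share reads, so the values of AKR1C1 to AKR1C4 are uncertain as single genes. AKR1B10 stood at 0.968, 1.19 and 1.02 CPM in old cells, below the young libraries, but was not called in old vs young (log2 change -0.51, edgeR adjusted p 0.14). HMOX1, the heme oxygenase that frees iron from heme, went from 31.5, 37.7 and 35.2 CPM to 963, 1046 and 912 CPM (log2 change 4.80, SE 0.081, edgeR adjusted p 6.9e-22). SLC7A11, the cystine importer that feeds glutathione synthesis and is also an ATF4 target, went from 173, 187 and 217 CPM to 559, 525 and 542 CPM (log2 change 1.49, SE 0.073).

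**Figure D3:**
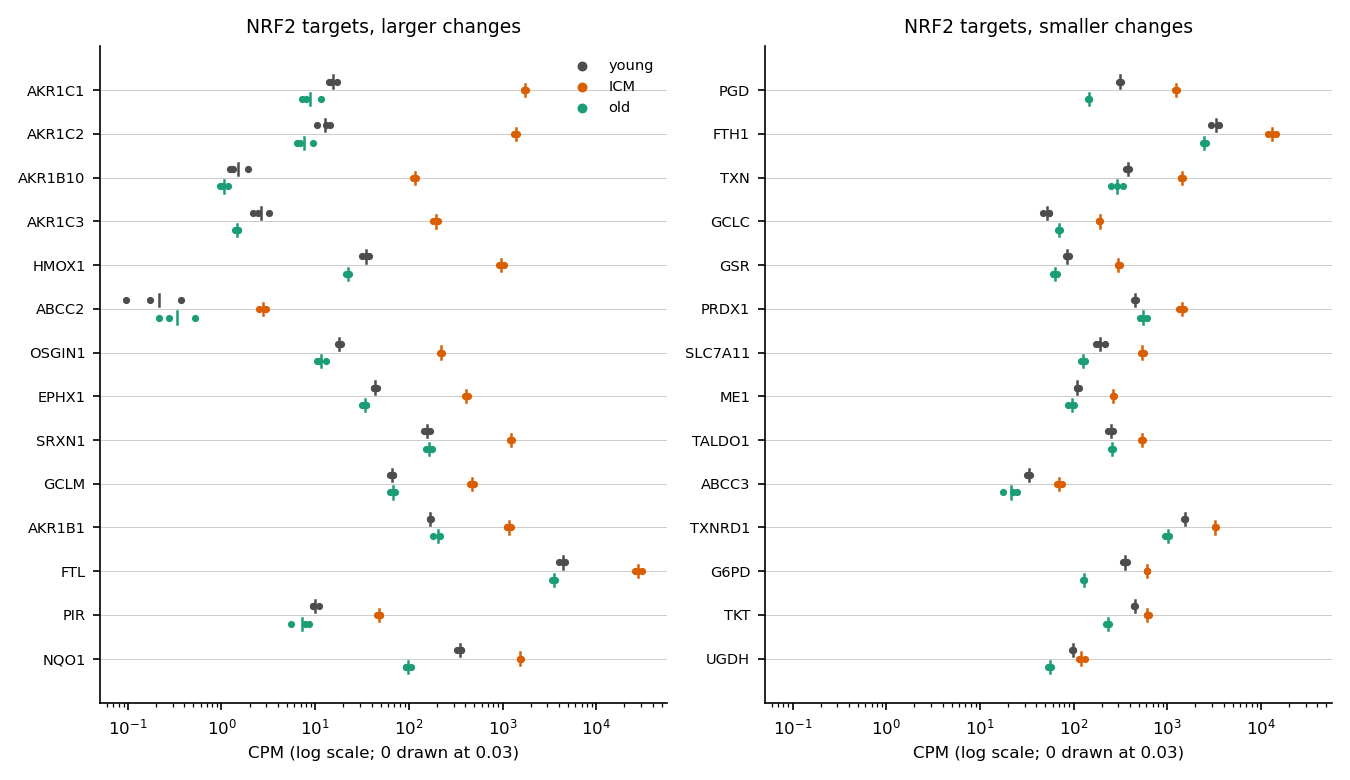
Level in CPM (log axis) of the 28 NRF2 targets in each young, ICM and old library, ordered by the log2 change in ICM vs young from the top of the left panel to the bottom of the right panel; points are libraries and short bars are means of 3. The ICM points lie to the right of the young and old points in every row.

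The windows around the start sites of these genes were searched for the antioxidant response element core, TGACNNNGC on either strand, since the list moved as a block. The RefSeq table (GRCh38.p14, from 250 bases before to 50 after a start site) held 20 of the 28 members, and 6 of these had the letters in at least 1 window, against 4384 of 27305 genes in the whole table (16.1%) and 19.1% of the tested genes in it. The window reaches neither distant enhancers nor all start sites, so an absent match says only that the letters are not there. The 3 holders with the largest rise are shown as 30 bases on the strand of the gene, with the matched letters in capitals. The stretch of EPHX1, an epoxide hydrolase, lies at chr1:225825266-225825295 (plus strand), with the match 74 bases before its start site, and the gene rose from 42.6, 42.7 and 45.5 CPM to 393, 411 and 424 CPM.
EPHX1: tgagattggcTGACTTGGCaggactgtgca
That of GCLM, the modifier subunit of the enzyme that starts glutathione synthesis, lies at chr1:93909445-93909474 (minus strand), with the match 30 bases before its start site, and the gene rose from 63.7, 67.5 and 67.0 CPM to 465, 447 and 491 CPM.
GCLM: tacgatttctGCTTAGTCAttgtcttccag
That of PIR, an iron-binding nuclear protein, lies at chrX:15493288-15493317 (minus strand), with the match 30 bases after its start site, and the gene rose from 10.9, 9.50 and 9.53 CPM to 45.4, 49.0 and 49.1 CPM.
PIR: gccgcgaagcGCTGAGTCAcggtgaggcta

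Iron handling and xenobiotic metabolism moved with the NRF2 targets, and the lists share members such as FTL, FTH1, HMOX1 and EPHX1. Of 11 genes of iron storage and transport, 8 rose and 2 fell. SLC40A1, ferroportin, the only known iron exporter of cells, was at 9.43, 9.15 and 6.86 CPM in young and 266, 270.4 and 263 CPM in ICM (log2 change 4.98, SE 0.088), while it stood at 4.52, 5.04 and 4.91 CPM in old cells. TFRC, the transferrin receptor through which iron enters, rose less, from 352, 356 and 404 CPM to 586, 617 and 526 CPM (log2 change 0.64, SE 0.069). STEAP3, an endosomal ferrireductase, fell from 83.4, 81.7 and 86.0 CPM to 39.96, 39.0 and 40.4 CPM, and IREB2, an iron-sensing RNA-binding protein, fell from 51.4, 52.5 and 62.1 CPM to 40.3, 36.4 and 39.6 CPM. A gene of storage, of export and of import was thus among the rises.

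Of 24 tested xenobiotic enzymes and transporters (30 listed), 16 rose and 4 fell, with a median log2 change of 1.26. SLCO2B1, CYP19A1 and CYP4F11 passed the filter through the ICM libraries alone and had to differ, so that count and median do not describe all 30. CYP4F11, a fatty acid hydroxylase, was at 0.124, 0.0872 and 0.191 CPM in young and 7.59, 7.40 and 6.87 CPM in ICM. SLCO4A1, another organic anion transporter, fell from 3.60, 2.62 and 3.24 CPM to 0.526, 0.463 and 0.848 CPM, in the opposite direction to SLCO2B1. The metallothioneins, small zinc-binding proteins that respond to metals through MTF1, showed no shared shift: 2 of 8 tested list members rose, 2 fell, and MT2A stood at 567, 490.4 and 564 CPM in young and 519.8, 477 and 569 CPM in ICM (log2 change -0.049, SE 0.073, edgeR adjusted p 0.56), with overlap between the groups. The called rises in that list were MTF1 itself and the zinc exporter SLC30A1. MT2A was at 1368, 1238 and 1283 CPM in old cells, above all young and ICM libraries. The metallothioneins are near-identical copies and uncertain as single genes.

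Most genes of lipid synthesis rose. In the list of cholesterol synthesis and uptake, 23 of 25 genes were called higher and none lower, with a median log2 change of 0.55. In old vs young 21 of the 25 were also called higher and 1 lower, with a median of 0.42. IDI1, an isomerase of the mevalonate pathway, went from 41.6, 43.1 and 45.3 CPM to 140.2, 129.7 and 133 CPM (log2 change 1.63, SE 0.065), and DHCR7, which catalyses the last step to cholesterol, from 60.7, 60.9 and 63.9 CPM to 152, 155 and 159 CPM (log2 change 1.33, SE 0.066). The fatty acid list had 10 of 13 genes higher and none lower. Its largest changes were in the desaturases FADS1, from 98.1, 95.6 and 94.3 CPM to 576, 651 and 515 CPM (log2 change 2.596, SE 0.077), and FADS2, from 211, 213 and 227 CPM to 591, 627 and 601 CPM (log2 change 1.48, SE 0.064). The old libraries had 85.3, 87.1 and 92.3 CPM of FADS1, near the young level, and the fatty acid list there had 6 genes called higher and 5 lower. Of 9 tested genes of sterol efflux 6 rose and 2 fell, and NPC1, which carries cholesterol out of lysosomes, had the largest rise, from 29.5, 28.4 and 25.5 CPM to 142, 145 and 134 CPM (log2 change 2.34, SE 0.073).

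The sterol regulatory element, TCACNCCAC on either strand, was found in 1 of the 18 cholesterol genes with a RefSeq window (5.6%), against 379 of 27305 genes in the table (1.4%) and 1.5% of the tested ones. That gene was SREBF2, which encodes the factor that binds the element and which rose by 0.26 (SE 0.065) on the log2 scale, from 169, 174 and 164 CPM to 203, 202 and 202 CPM. The 30 bases lie at chr22:41832962-41832991 (plus strand), with the match 129 bases before the start site.
SREBF2: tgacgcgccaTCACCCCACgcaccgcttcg

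Glycolysis, lysosome and autophagy genes rose in most cases, and mitochondrial energy genes were mixed. Of 23 genes of glycolysis and glucose uptake, 17 rose and 2 fell. SLC2A1, the glucose transporter GLUT1, was at 182, 200.4 and 202 CPM in young and 942, 991 and 991 CPM in ICM (log2 change 2.32, SE 0.067), and HKDC1, a hexokinase-like gene among the 12 largest rises, went from 0.744, 0.174 and 0.191 CPM to 17.0, 20.8 and 16.2 CPM. In the tricarboxylic acid cycle 5 of 20 genes rose and 4 fell, and CS, citrate synthase, was among the falls, from 214, 190.1 and 196 CPM to 123.2, 119 and 116 CPM. The respiratory chain had 33 of 75 tested genes higher and 14 lower, with a median log2 change of 0.17. Of 35 lysosomal genes 24 rose and 4 fell, and the acid ceramidase ASAH1 rose from 57.4, 59.4 and 61.6 CPM to 214, 207 and 223 CPM. SQSTM1, the autophagy receptor p62 and itself an NRF2-responsive gene, went from 749, 779 and 762 CPM to 4166, 4395 and 4213 CPM (log2 change 2.48, SE 0.065), the largest of 12 rises among 19 autophagy genes. TFEB, a master factor of lysosomal genes, fell from 4.59, 5.06 and 5.34 CPM to 2.40, 1.76 and 1.70 CPM.

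The division machinery fell without an exception among the mitotic genes. All 40 genes of the mitotic spindle and kinetochore were called lower (36.1% of all genes), each by over 0.6, with a median log2 change of -5.10. Their summed level was 1830 to 1866 CPM in the young libraries and 98.9 to 103 CPM in the ICM libraries. The old libraries lay between, at 503 to 577 CPM. CDC20, which activates the anaphase ubiquitin ligase, went from 105, 104 and 95.5 CPM to 0.976, 0.648 and 0.424 CPM, and ANLN, the cytokinesis scaffold anillin, from 151, 155 and 166 CPM to 5.33, 5.09 and 4.24 CPM. In ICM vs old, 39 of the 40 were called lower (32.5% of all genes), with a median log2 change of -3.44.

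Genes of mitosis commonly carry a CHR element (TTTGAA) and CCAAT boxes close to their start sites, where the DREAM and B-MYB complexes and NF-Y bind. Of the 40 genes, 34 had a RefSeq window. TTTGAA, on either strand, was in the windows of 26 of these (76.5%), against 4961 of 27305 genes in the table (18.2%) and 1450 of the 10387 tested ones, and CCAAT was in 27 (79.4%), against 10846 of 27305 genes (39.7%) and 43.1% of the tested ones. The matches that lie closest to the start site are shown for the 3 holders with the largest falls. TTTGAA lay 18 bases after the start site of NUF2, a kinetochore protein (chr1:163321958-163321987, plus strand), 63 bases before that of CDC20 (chr1:43358904-43358933, plus strand), and 32 bases before that of KIF4A, a chromosome-bound kinesin (chrX:70290058-70290087, plus strand).
NUF2: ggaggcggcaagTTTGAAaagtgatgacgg
CDC20: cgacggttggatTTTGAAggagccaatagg
KIF4A: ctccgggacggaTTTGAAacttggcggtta
The CCAAT letters, read on the opposite strand as ATTGG in KIF20A and KIF4A, lay 65 bases before the start site of KIF20A (chr5:138179033-138179062, plus strand), 53 bases before that of CDC20 (chr1:43358914-43358943, plus strand) and 56 bases before that of KIF4A (chrX:70290034-70290063, plus strand), and they share no letter with the TTTGAA matches shown.
KIF20A: cttccctatctgATTGGccgaacgaacgca
CDC20: attttgaaggagCCAATaggcgctcggagc
KIF4A: gtccgcactgcaATTGGttggcgtctccgg

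The median fall of the replication genes was smaller. Of 32 genes of replication licensing and the fork, 31 were called lower and none higher, with a median of -2.64. CDT1, the licensing factor that loads the helicase, went from 22.3, 20.2 and 24.6 CPM to 0.451, 1.02 and 1.53 CPM (log2 change -4.50, SE 0.20), while PCNA, the sliding clamp that also serves repair, went from 99.5, 94.8 and 104 CPM to 52.9, 54.3 and 53.2 CPM (log2 change -0.89, SE 0.074). PCNA did not pass the test in ICM vs old (log2 change -0.081, adjusted p 0.37). All 8 genes of deoxynucleotide synthesis fell. RRM2, the regulated subunit of ribonucleotide reductase, went from 177, 152 and 173 CPM to 3.30, 3.70 and 4.58 CPM, a log2 change of -5.44, and DUT, which removes dUTP, from 52.1, 51.8 and 55.2 CPM to 30.5, 30.6 and 30.7 CPM, a log2 change of -0.79. All 8 condensin genes fell as well, from NCAPH (log2 change -6.33, SE 0.20) to NCAPH2 (log2 change -0.52, SE 0.078), the corresponding subunits of condensin I and condensin II.

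Of 21 S and M phase cyclins, kinases and their transcription factors, 20 fell. MYBL2, the B-MYB factor, went from 78.5, 70.8 and 64.2 CPM to 0.601, 0.648 and 0.678 CPM, and CDK1, the mitotic kinase, from 46.2, 41.0 and 49.0 CPM to 0.601, 0.648 and 0.594 CPM. E2F8, a repressor made in S phase, was at 4.71, 5.32 and 4.00 CPM in young and had no ICM read, at least 56.2-fold lower against the same floor. Of the 11 genes of G1 3 rose and 5 fell, near the shares of all genes. CCND3, cyclin D3, rose from 97.9, 94.5 and 88.1 CPM to 346, 311 and 355 CPM, and CCND1, cyclin D1, from 853, 860.4 and 884 CPM to 1556, 1565 and 1563 CPM. Their partner CDK6 rose too, whereas CDK4 fell from 170.4, 157 and 146 CPM to 76.8, 81.7 and 69.2 CPM. RB1, the retinoblastoma protein, was at 40.2, 41.3 and 49.6 CPM in young and 43.9, 42.1 and 46.0 CPM in ICM, which overlap, and did not pass the test.

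Of the 7 CDK inhibitors 3 rose and 4 fell. CDKN1A, which encodes p21, was at 521, 519 and 502 CPM in young and 3212, 3479 and 3255 CPM in ICM (log2 change 2.69, SE 0.066), above the 1569, 1479.9 and 1604 CPM of the old libraries. CDKN2B, which encodes p15 and lies next to the p16 gene, was at 25.3, 23.5 and 27.6 CPM in young and 38.6, 35.4 and 37.3 CPM in ICM (log2 change 0.55, SE 0.082), a call that did not pass on CDS reads alone. CDKN2D rose by 0.69 (SE 0.12) on the log2 scale, and CDKN2C, CDKN1C and CDKN1B fell, with log2 changes of -3.21, -0.82 and -0.75. CDKN2A, the p16 locus, was at 43.9, 51.9 and 53.1 CPM in young and 38.6, 44.3 and 43.2 CPM in ICM, which overlap. Its log2 change of -0.25 (edgeR adjusted p 0.017) was no longer called with CDS reads alone, without young replicate 2, without young replicate 3 or without ICM replicate 1. Of 28 p53 targets, 23 rose and 4 fell. GDF15, a secreted stress cytokine, rose from 57.1, 68.1 and 66.5 CPM to 203, 267 and 206 CPM, while BBC3, which encodes the death effector PUMA, fell from 8.19, 8.98 and 12.8 CPM to 6.61, 5.65 and 6.44 CPM. In the BCL2 family, 3 of 12 tested genes rose and 6 fell, with members of either role in both directions. The anti-death BCL2L2 rose from 54.6, 57.4 and 60.8 CPM to 81.1, 80.9 and 83.4 CPM, and the pro-death BAX from 117, 111 and 116 CPM to 139, 136 and 148 CPM. The anti-death MCL1, the member with the most reads, fell from 216, 226 and 259 CPM to 143, 148 and 147 CPM, and BCL2 had a log2 change of -1.97 (SE 0.36). Of 31 repair and checkpoint genes 22 fell and 1 rose, with FANCD2, of the crosslink repair pathway, going from 14.9, 18.8 and 18.9 CPM to 0.751, 0.74 and 1.27 CPM.

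**Figure D4:**
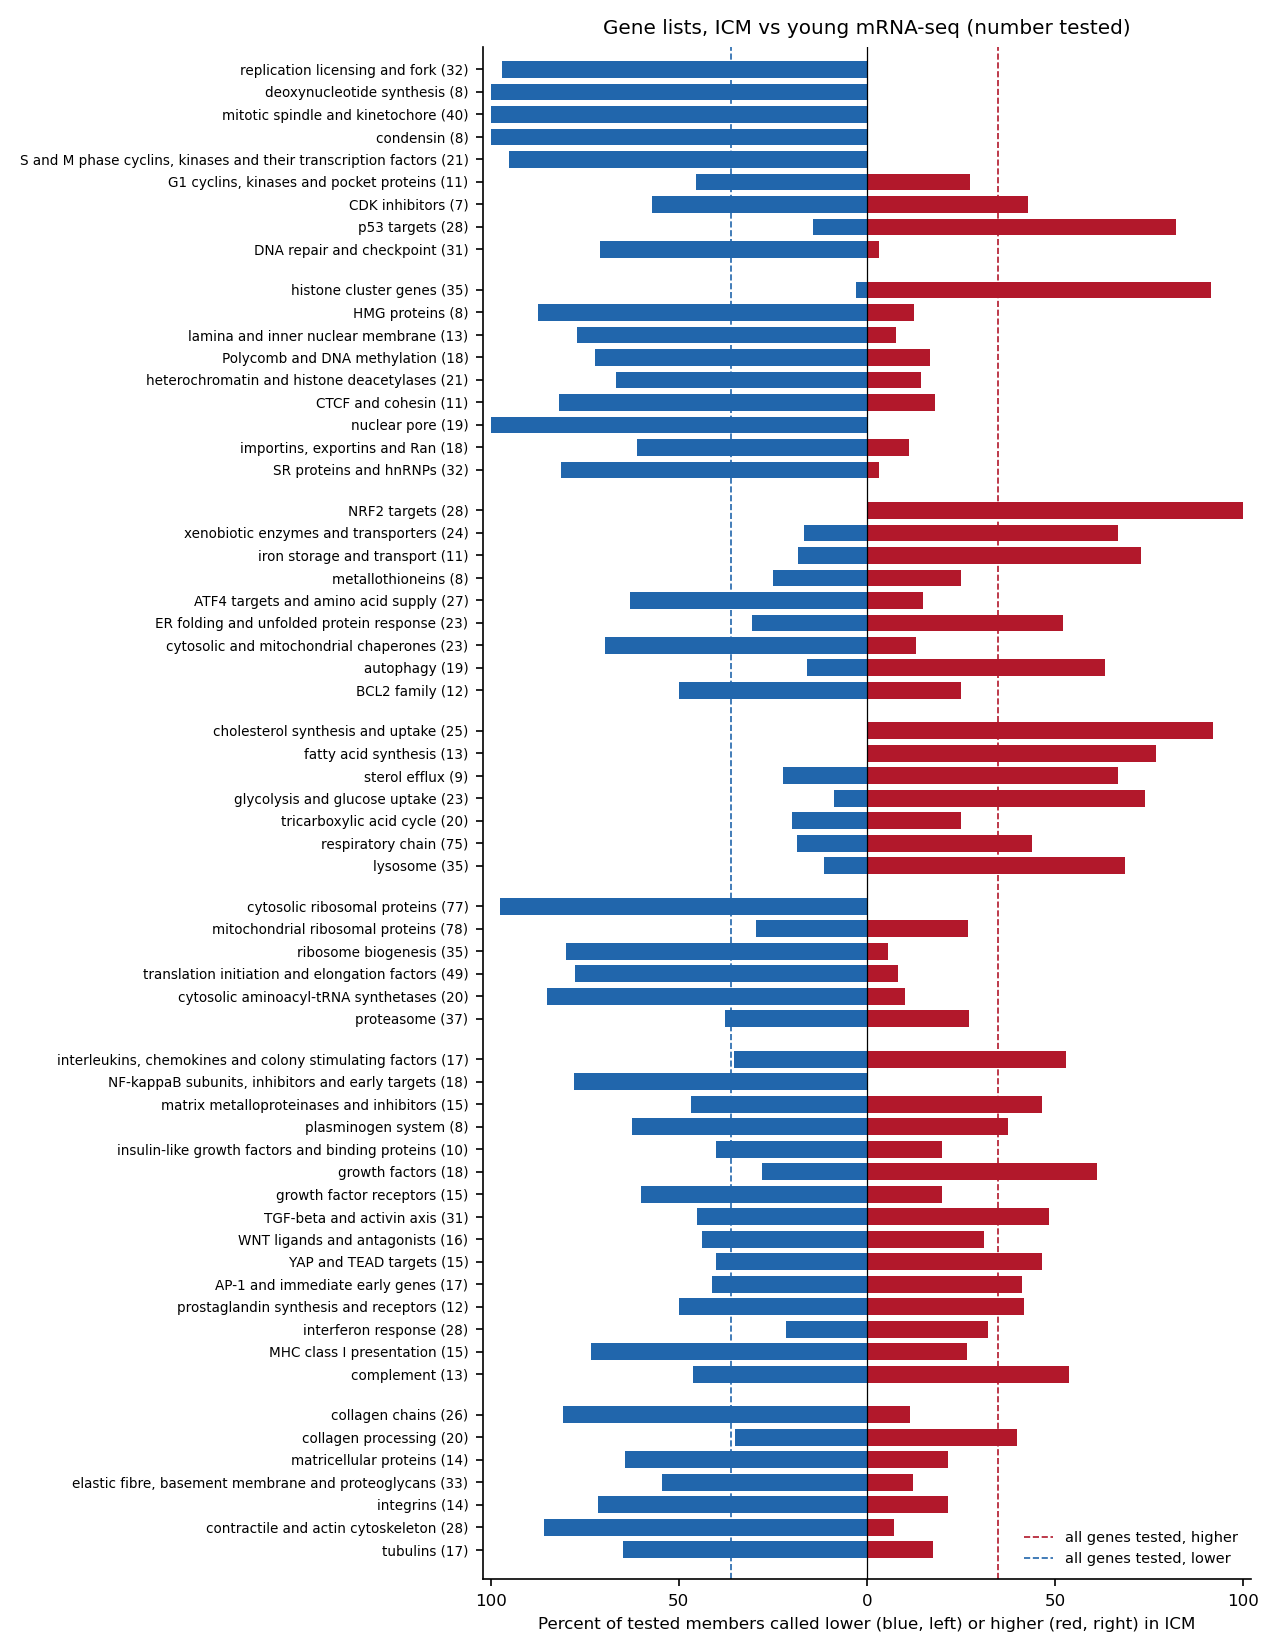
Percent of the tested members of each of 62 gene lists that were called higher (red, to the right) or lower (blue, to the left) in ICM vs young, with the number tested in brackets and dashed lines at the percent of all genes called higher (34.9%) and lower (36.1%). Lists of division, nuclear structure, ribosome and contractile genes reach far to the left, and NRF2, cholesterol, histone cluster and p53 lists far to the right.

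Lists of chromatin and nuclear genes held more falls than rises, except for the histone clusters. HMGB1 and HMGB2, the targets of the compound, both fell at the mRNA level. HMGB1 was at 393, 360.4 and 385 CPM in young, 114, 114 and 114 CPM in ICM and 144, 150.3 and 138 CPM in old cells, and HMGB2 was at 114, 103 and 114 CPM in young, 4.28, 5.83 and 5.26 CPM in ICM and 17.7, 22.2 and 20.9 CPM in old cells. For both genes every ICM value lay below every young and every old value. Of the 8 HMG genes 7 fell. HMGA2, an architectural protein high in fetal cells, went from 141, 137 and 166 CPM to 23.6, 20.4 and 20.2 CPM, whereas the old libraries stood at 352, 339.8 and 357 CPM, above the young ones. HMGN3 was the gene that rose, from 31.3, 27.6 and 30.8 CPM to 40.3, 46.1 and 47.7 CPM.

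Of 13 genes of the lamina and inner nuclear membrane 10 fell and 1 rose. After LMNB1, the largest falls were in TMPO, the lamina-associated LAP2, from 88.3, 85.1 and 95.9 CPM to 10.9, 10.1 and 9.75 CPM (log2 change -3.13, SE 0.10), and LMNB2, from 239.6, 246 and 246 CPM to 71.3, 72.7 and 67.4 CPM (log2 change -1.79, SE 0.077). LMNA, the lamin A and C gene, fell less, from 592, 629 and 669 CPM to 408, 409 and 458 CPM (log2 change -0.57, SE 0.076). SYNE1, a nesprin that ties the nucleus to actin, was the rise, with a log2 change of 0.24 (SE 0.09) that was not called under some of the settings tried.

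Polycomb and DNA methylation genes fell in 13 of 18 cases and rose in 3. EZH2, the methyltransferase that lays the H3K27 mark, went from 23.8, 27.0 and 24.4 CPM to 2.70, 2.68 and 2.29 CPM (log2 change -3.29, SE 0.13), and its relative EZH1, which is not tied to division, rose from 14.8, 16.5 and 15.0 CPM to 25.8, 25.6 and 24.3 CPM (log2 change 0.71, SE 0.088). UHRF1, which guides DNA methylation to new strands, fell from 69.6, 75.9 and 75.8 CPM to 5.93, 4.81 and 6.44 CPM. In the list of heterochromatin and histone deacetylases 14 of 21 genes fell and 3 rose. CTCF, the insulator protein, fell from 40.2, 39.7 and 40.9 CPM to 17.5, 16.7 and 21.4 CPM, and among cohesin genes SMC3, SMC1A and RAD21 fell, while the loader subunit MAU2 and the subunit STAG1 rose. STAG2, the alternative to STAG1, fell, with a log2 change of -0.73 (SE 0.079) against 0.39 (SE 0.071). All 19 tested genes of the nuclear pore fell, none by more than 1.30 on the log2 scale, and 26 of 32 splicing SR proteins and hnRNPs fell. Of 18 importin, exportin and Ran genes 11 fell and 2 rose. TNPO1, transportin, which imports hnRNPs, was the largest rise, from 218, 228 and 257 CPM to 717, 686 and 703 CPM, while its old level was 222, 229 and 242 CPM.

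The histone cluster genes rose although replication genes fell. Of 74 listed genes 35 passed the filter, of which 32 were called higher and 1, HIST1H2AH, lower, with a median log2 change of 2.66. HIST1H1C, linker histone H1.2, was at 13.5, 14.04 and 14.2 CPM in young, 58.5, 65.1 and 68.4 CPM in old and 286, 299.9 and 299 CPM in ICM, and HIST1H4H was at 0.993, 1.05 and 0.667 CPM in young, 5.16, 5.34 and 5.56 CPM in old and 42.5, 41.0 and 41.7 CPM in ICM. The summed level of the list was 112 to 121 CPM in young, 427 to 437 CPM in old and 910 to 942 CPM in ICM. Transcripts of these genes usually end in a stem-loop and lack a poly(A) tail, and the study describes poly(A) selection for these libraries where the labels give total RNA. Whether the level, the share with a tail or both moved was not tested. Many of these genes are near-identical: HIST2H2AA3 and HIST2H2AA4 had the same value in every library and cannot be told apart. Genes that pass the filter through the ICM libraries alone had to differ, so the count over tested genes does not describe all 74, and with a mean of at least 50 counts required it was 13 called genes.

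The protein synthesis apparatus was lower and the amino acid response with it. Of 77 cytosolic ribosomal protein genes 75 fell and none rose, with a median log2 change of -0.80 and a range from -1.67 to -0.078. RPL3 fell most, from 1967, 1865 and 1732 CPM to 591, 591 and 563 CPM, and the 2 that did not pass, named here after their values were seen, were RPS26 and RPS28. RPS26 was at 137, 128 and 120.4 CPM in young and 121, 126 and 118 CPM in ICM, which overlap. The summed level of the 77 genes went from 56020 to 61714 CPM in young to 32572 to 34566 CPM in ICM. Translation factors (38 of 49 lower), ribosome biogenesis (28 of 35 lower) and cytosolic aminoacyl-tRNA synthetases (17 of 20 lower) moved the same way, whereas mitochondrial ribosomal proteins split into 21 higher and 23 lower of 78, and proteasome genes into 10 higher and 14 lower of 37. RRP12, a ribosome export factor, was the largest of 2 rises in biogenesis, from 35.4, 34.9 and 38.0 CPM to 105, 97.5 and 108 CPM, and FBL, the nucleolar methyltransferase fibrillarin, the largest fall, from 112, 114 and 122 CPM to 37.2, 36.1 and 35.4 CPM.

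Of 27 ATF4 targets and amino acid supply genes, 17 fell and 4 rose. ASNS, asparagine synthetase, went from 99.4, 105 and 104 CPM to 8.94, 11.9 and 7.63 CPM (log2 change -3.44, SE 0.11), and PHGDH, the first enzyme of serine synthesis, from 261, 271 and 274 CPM to 46.0, 54.3 and 39.8 CPM (log2 change -2.53, SE 0.083). The old level of PHGDH was 55.6, 58.2 and 51.9 CPM. The rises were in ATF3, a stress factor that went from 15.3, 15.9 and 15.3 CPM to 147, 169 and 135 CPM, in CEBPB, SLC7A11 and STC2, so that genes of one list moved apart. In the endoplasmic reticulum 12 of 23 genes rose and 7 fell, with log2 changes from -0.67 to 1.29, and HSPA5, the chaperone BiP that marks unfolded protein stress, fell from 975, 999 and 1024 CPM to 687, 754 and 633 CPM. Of 23 cytosolic and mitochondrial chaperones 16 fell, among them HSPD1, from 399, 404 and 411 CPM to 198, 174 and 183 CPM.

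Secreted inflammatory genes moved both ways. Of 29 interleukin, chemokine and colony stimulating factor genes 17 passed the filter, of which 9 rose and 6 fell. Some members, such as CXCL3 and CCL26, had hardly a read in young and passed the filter only through a group where they were high, so that they had to differ and the count does not describe all 29. The number called went from 15 to 8 where a mean of at least 50 counts was required. CXCL8, the neutrophil attractant interleukin 8, was at 1.86, 0.872 and 0.953 CPM in young, 9.998, 13.6 and 27.7 CPM in old and 17.0, 18.2 and 16.4 CPM in ICM, and was not called in ICM vs old (log2 change 0.00046, SE 0.21). CXCL3, of the same family, went from 0.124, 0.0872 and 0.286 CPM to 7.14, 11.9 and 8.82 CPM, and the eosinophil attractant CCL26 from 0.496, 0.349 and 0.381 CPM to 7.06, 6.20 and 8.48 CPM. On the other side, TSLP, a cytokine that acts on dendritic cells, fell from 29.2, 27.6 and 29.8 CPM to 4.96, 5.18 and 3.82 CPM, IL1B from 3.60, 3.84 and 4.58 CPM to 1.202, 1.76 and 1.19 CPM, and LIF, the list member with the most reads, from 112, 111 and 105 CPM to 71.1, 70.6 and 75.9 CPM. IL6, a much used secretory marker of senescence that is named here after its values were seen, was at 16.4, 15.95 and 17.5 CPM in young and 8.86, 13.9 and 9.84 CPM in ICM (log2 change -0.63, SE 0.13).

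The NF-kappaB list had no rise: 14 of 18 genes fell and 4 did not pass the test, with a median log2 change of -1.20. The adhesion receptors ICAM1 and VCAM1, which bind leukocytes, went from 103, 85.0 and 86.2 CPM to 5.41, 8.42 and 5.26 CPM and from 149.9, 151 and 149 CPM to 16.8, 19.1 and 15.9 CPM. PTX3, a secreted pattern recognition protein, fell from 175, 179 and 190.1 CPM to 34.9, 34.0 and 35.2 CPM, while old cells had 232, 251 and 242 CPM. SOD2, the mitochondrial dismutase, was at 272, 269 and 277 CPM in young and 294, 303 and 294 CPM in ICM and did not pass the test.

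Among matrix proteases and inhibitors 7 of 15 tested genes rose and 7 fell. MMP3 and MMP10, among the rises, were near 0 in young and passed the filter only through groups where they were higher. The count therefore does not describe all 19 listed. TIMP3, an inhibitor held in the matrix, fell from 920.4, 889 and 871 CPM to 106, 115 and 104 CPM, whereas old cells stood at 3304, 3229.5 and 3341 CPM. TIMP1 was at 1909, 1842 and 1819.6 CPM in young and 1659, 1715 and 1695 CPM in ICM and did not pass the test. In the plasminogen system SERPINB2, PLAT and SERPINE2 rose and the other 5 genes fell, PLAU, the urokinase, from 713, 678 and 664 CPM to 256, 315 and 287 CPM. All 8 genes of that system were lower in ICM than in old cells, where 7 of the 8 were above young.

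Of 18 tested growth factor ligands (21 listed) 11 rose and 5 fell, and of 15 tested receptors (19 listed) 3 rose and 9 fell. AREG, a ligand with 2 reads over the young group and 51 over the ICM group, passed the filter only through a group where it was higher. The ligand count therefore does not describe all 21. NRG1, neuregulin, was at 10.5, 13.3 and 10.9 CPM in young and 82.0, 106 and 80.4 CPM in ICM, and PDGFD at 20.3, 26.2 and 25.1 CPM and 133, 132 and 126 CPM. Among the receptors, AXL, a receptor tyrosine kinase for GAS6, went from 685, 688 and 682 CPM to 215, 209 and 223 CPM, and PDGFRB from 190.1, 213 and 213 CPM to 72.9, 65.2 and 68.0 CPM, while IL1R1 rose from 62.5, 64.9 and 60.7 CPM to 129, 139 and 133 CPM. In the insulin-like growth factor system 2 of 10 tested genes rose and 4 fell. IGF2 fell from 42.3, 47.9 and 46.2 CPM to 6.38, 7.31 and 8.14 CPM, IGFBP5 fell and IGFBP4 rose. IGFBP3 was at 441, 449.6 and 445 CPM in young and 469.8, 422 and 473 CPM in ICM, which overlap, with no call in ICM vs young and 3211, 3235 and 3162 CPM in old, and IGFBP7 fell in ICM (log2 change -0.65) and stood at 3385, 3578 and 3248 CPM in old.

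Developmental signalling showed no shared direction. The TGF-beta and activin list had 15 of 31 genes higher and 14 lower. ID1, ID2 and ID3, inhibitors of differentiation that BMP signals induce, all rose, ID3 from 20.2, 18.7 and 17.2 CPM to 85.8, 82.1 and 90.0 CPM, while INHBE, an activin subunit gene, fell from 13.5, 15.8 and 12.9 CPM to 0.751, 0.833 and 0.339 CPM. In the WNT list 5 of 16 tested genes rose and 7 fell, WNT2 from 45.4, 45.5 and 36.9 CPM to 1.88, 2.68 and 1.61 CPM. WNT16, a ligand that old cells had at 64.1, 68.0 and 63.9 CPM, was at 5.03, 4.35 and 4.83 CPM in ICM and 0.744, 0.959 and 1.14 CPM in young. Of 15 YAP and TEAD targets 7 rose and 6 fell. CCN2, which encodes connective tissue growth factor, rose from 705, 866 and 973 CPM to 1826, 1790.1 and 1955 CPM, and ANKRD1 fell from 11.9, 11.4 and 9.44 CPM to 2.40, 3.05 and 2.71 CPM, with 218, 255 and 222 CPM in old. AP-1 and immediate early genes had 7 of 17 higher and 7 lower. EGR1, an early response factor, fell from 72.2, 101 and 107 CPM to 5.33, 8.05 and 11.8 CPM, and JUN rose from 119, 139 and 148 CPM to 219, 236 and 236 CPM.

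In prostaglandin metabolism 5 of 12 tested genes rose and 6 fell. Both cyclooxygenases rose, PTGS1 from 186, 196 and 180.3 CPM to 602, 761 and 558 CPM and PTGS2 from 1.74, 2.01 and 2.10 CPM to 12.7, 21.7 and 12.04 CPM, and PTGIS, prostacyclin synthase, fell from 92.9, 90.8 and 81.9 CPM to 4.73, 5.09 and 5.85 CPM. Interferon response genes were split, 9 higher and 6 lower of 28 tested. IFI44L, near 0 in young, passed the filter only through a group where it was higher, so the count does not describe all 32 listed. IFI44L rose from 0.124, 0.436 and 0.191 CPM to 8.64, 7.40 and 7.80 CPM and OAS3, a sensor of double-stranded RNA, fell from 24.1, 23.1 and 26.1 CPM to 2.25, 1.76 and 1.44 CPM. Of 15 genes of MHC class I presentation 11 fell and 4 rose, with log2 changes from -0.89 to 0.92. Of 13 tested complement genes 7 rose and 6 fell. C3, the central component, fell from 2.48, 3.31 and 4.19 CPM to 0.15, 0.185 and 0.0848 CPM.

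The fibroblast matrix and the contractile apparatus were lower. Of 44 collagen chain genes 26 were tested, of which 21 fell and 3 rose, and their summed level went from 34094 to 40402 CPM in young to 13625 to 14308 CPM in ICM. COL15A1, a chain of a collagen next to basement membranes, fell from 194, 218 and 198 CPM to 9.54, 10.6 and 7.97 CPM (log2 change -4.45, SE 0.10), and COL6A1, a chain of the microfibrillar type VI collagen, from 2564, 2899 and 2974 CPM to 709, 803 and 718 CPM. In old vs young 11 collagen genes were called higher and 11 lower, and COL1A1 stood at 14211, 11668 and 14434 CPM in old cells. Collagen processing genes split into 8 higher and 7 lower of 20: PLOD2, a lysyl hydroxylase, rose from 319, 329 and 389 CPM to 1122, 1037 and 1109.6 CPM, and PCOLCE, which speeds the removal of the C-propeptide, fell from 176, 189 and 185 CPM to 14.6, 17.0 and 14.6 CPM.

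Of 33 tested genes of elastic fibres, basement membranes and proteoglycans 18 fell and 4 rose, and of 14 tested matricellular genes 9 fell and 3 rose. SPP1, among the matricellular rises, passed the filter through the ICM libraries alone and had to differ. The matricellular count therefore does not describe all 18 listed. ELN, elastin, fell from 18.6, 15.5 and 13.6 CPM to 0.3, 0.37 and 0.424 CPM, BGN, the proteoglycan biglycan, from 193, 187 and 186 CPM to 9.54, 10.4 and 9.24 CPM, and THBS2, an adhesive glycoprotein, from 136, 142 and 160.3 CPM to 12.8, 11.7 and 10.9 CPM. The basement membrane genes NID2 and LAMA3 rose, NID2 from 375, 410.5 and 438 CPM to 1570.2, 1649 and 1642 CPM. Of 14 tested integrin genes 10 fell and 3 rose, with ITGA3, a laminin-binding subunit, going from 225, 237 and 241 CPM to 52.8, 57.7 and 59.5 CPM and ITGB3, a subunit of the vitronectin receptor, rising from 87.6, 90.9 and 84.2 CPM to 178, 189.6 and 183 CPM. In old vs young 12 of the 14 integrins were called higher.

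Of 28 contractile and actin cytoskeleton genes 24 fell and 2 rose. TAGLN, the actin-binding protein SM22 of smooth muscle and myofibroblasts, was at 2378, 2097 and 1992 CPM in young, 145, 136 and 129 CPM in ICM and 3795, 3739.6 and 3665 CPM in old. ACTA2, smooth muscle actin, was at 871, 842 and 779 CPM in young, 87.7, 90.0 and 83.8 CPM in ICM and 1079, 1200.4 and 1102 CPM in old, although actin genes share reads and are uncertain singly. MYOCD, a coactivator that switches on smooth muscle genes, rose from 24.6, 25.8 and 27.5 CPM to 49.5, 51.7 and 48.9 CPM, in the opposite direction to TAGLN and ACTA2. Tubulins fell in 11 of 17 tested cases, TUBB from 2301, 2268 and 2183 CPM to 1081, 1023 and 1099.9 CPM, and TUBA4A rose from 22.0, 21.5 and 20.3 CPM to 145, 145 and 148 CPM.

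Fibroblast markers overlap these matrix genes: 10 of the 13 tested fell and 1, TCF21, a transcription factor of lung and other fibroblasts, rose from 32.5, 37.3 and 32.4 CPM to 142, 170.2 and 144 CPM. The summed level of the blood markers went from 22.3 to 24.4 CPM in young to 54.9 to 67.3 CPM in ICM. Of the 2 blood markers tested 1 rose and 1 fell. The rise was that of CD68, a lysosomal membrane protein that fibroblasts also make, at 21.3, 21.2 and 19.4 CPM in young and 57.5, 65.3 and 53.1 CPM in ICM, while the leukocyte marker PTPRC stayed at or under 0.225 CPM in all 6 libraries. The summed epithelial markers were at 1.33 to 2.79 CPM in young and 1.28 to 1.95 CPM in ICM, and the summed endothelial markers at 2.10 to 2.70 CPM and 4.06 to 5.26 CPM, where VWF rose from 0.496, 0.523 and 0 CPM to 3.00, 3.24 and 3.90 CPM and TIE1, the other marker tested, fell from 1.86, 1.66 and 1.14 CPM to 0.376, 0.555 and 0.678 CPM. VWF was low in young and TIE1 in ICM, and each passed the filter only through a group where it was higher. These 2 calls therefore do not describe all 6 endothelial markers.

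The tables also hold reads of non-coding transcripts, which were scaled and tested on their own. Of 1517 such features past the filter 376 were higher in ICM (24.8%) and 357 lower (23.5%). PRC1-AS1, on the opposite strand of the mitotic gene PRC1, was at a mean of 634 in young and 20.9 in ICM, in CPM of non-coding reads, and whether reads of the gene itself were counted there was not tested.

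Set beside replicative senescence, the ICM response differed in depth for some lists and in direction for others. Both comparisons use the same young libraries, so the values are only placed side by side, and the test of the difference is ICM vs old. The median log2 change was -2.64 in ICM and -1.38 in old for replication licensing and the fork, and 30 of these 32 genes were lower in ICM vs old. It was -0.80 and -0.56 for cytosolic ribosomal proteins, where 48 of 77 were lower and 2 higher in ICM vs old. For p53 targets it was 0.65 and 0.52, and ICM vs old was mixed, with 14 of 28 higher and 9 lower (30.8% and 32.5% of all genes). The sign differed for NRF2 targets (2.07 and -0.48), contractile genes (-1.02 and 0.28), integrins (-0.78 and 0.50) and the plasminogen system (-0.55 and 0.76). In ICM vs old, 26 of 28 contractile genes, 11 of 14 integrins, 12 of 15 YAP and TEAD targets and 18 of 26 collagen chains were called lower (32.5% of all genes), with median log2 changes of -0.90, -1.57, -0.42 and -1.24. In the same comparison 17 of 24 xenobiotic genes and 10 of 13 fatty acid genes were called higher (30.8% of all genes). SLCO2B1, CYP19A1 and CYP4F11 were near 0 in old cells too and passed the filter through the ICM libraries alone. They had to differ, so the xenobiotic count does not describe all 30 listed. Of 19 tested nuclear pore genes 5 were called higher and 7 lower, near the shares of all genes (30.8% and 32.5%).

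**Figure D5:**
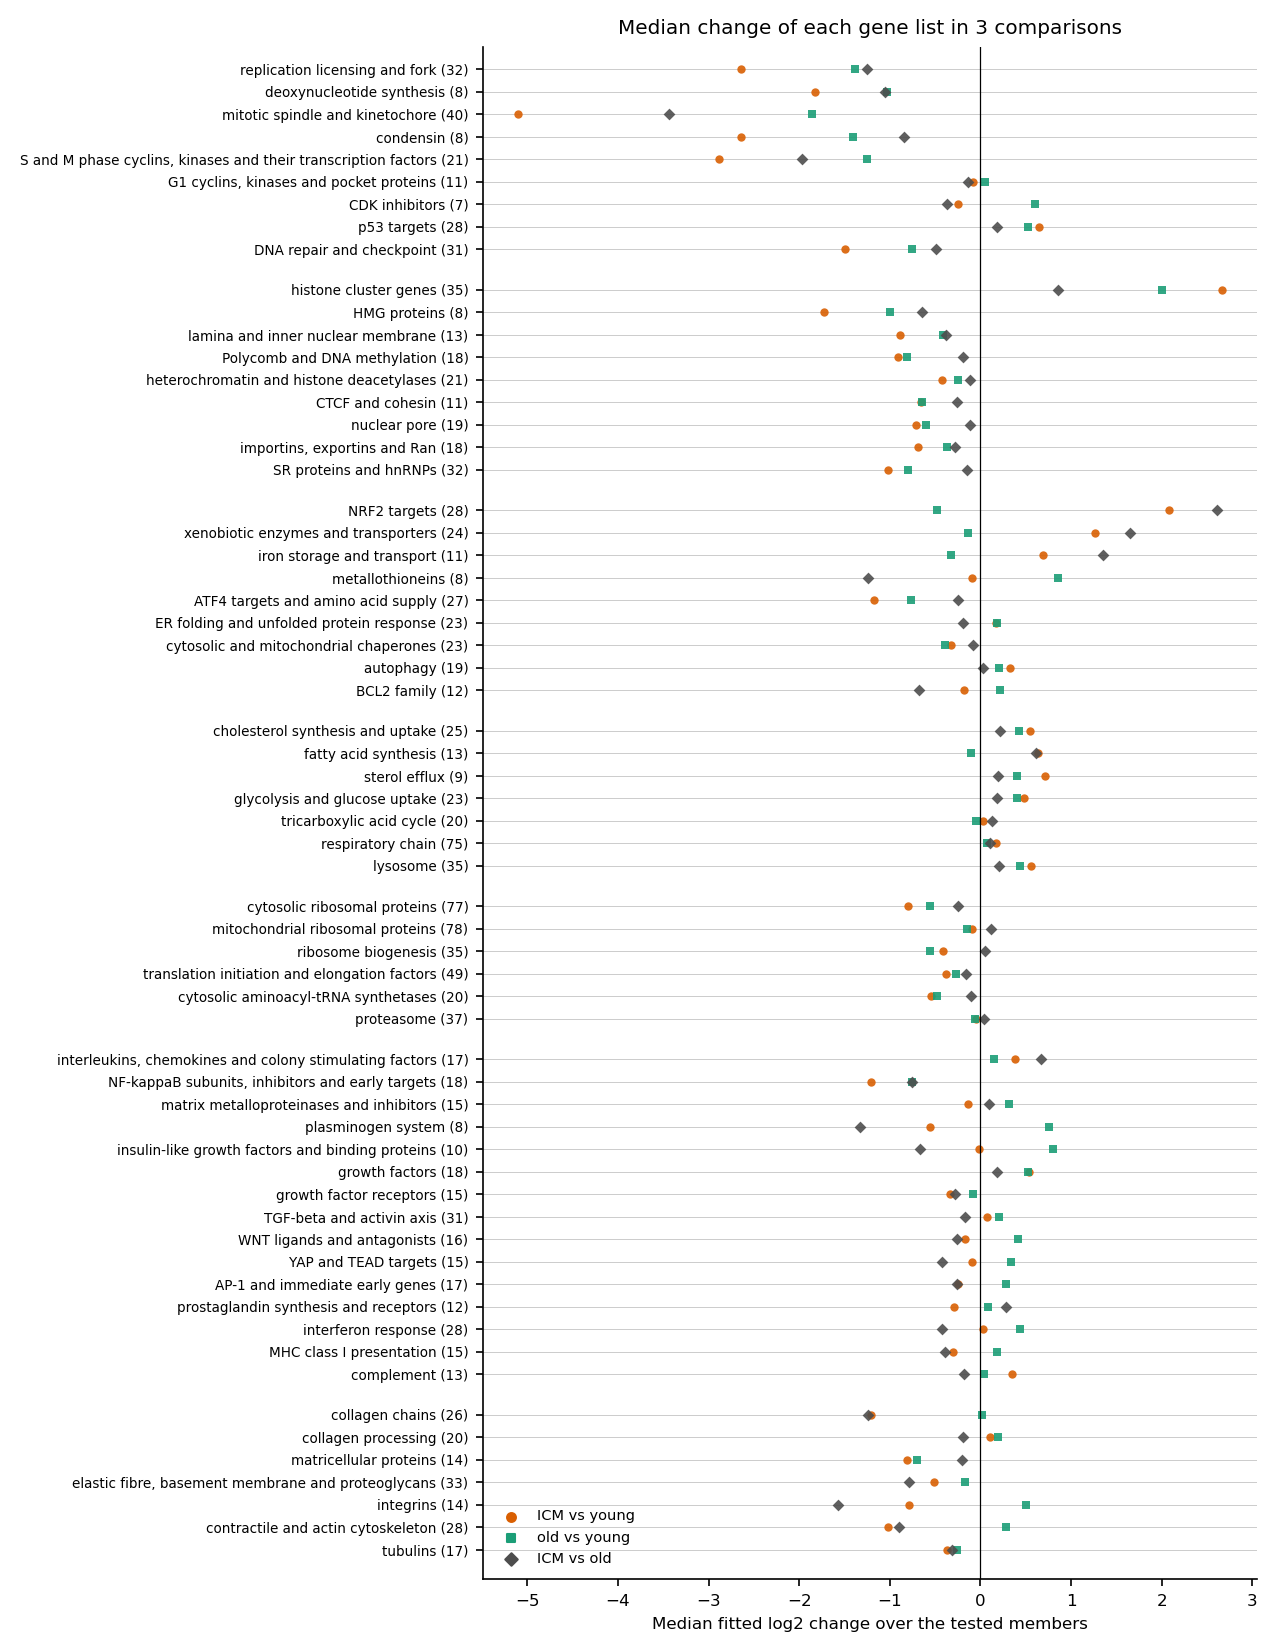
Median fitted log2 change over the tested members of each of 62 gene lists in ICM vs young (orange circles), old vs young (green squares) and ICM vs old (grey diamonds), with the number tested in brackets. For the mitotic list the medians are -5.10, -1.86 and -3.44, and for NRF2 targets 2.07, -0.48 and 2.61.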

How the data were processed

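The tables of the 9 mRNA-seq libraries were used, 3 each of young, ICM and old IMR90 cells. For each gene symbol the authors deposited estimated counts of reads in the 5′ UTR, CDS, 3′ UTR, non-coding RNA and pseudogene, in which 16.8% to 18.0% of the coding values were not whole, for a reason not given in the sources used here. How these tables were aligned and annotated is not given in the sources used here. The submitters' processing notes name STAR 2.6.0c, featureCounts, DESeq2, deepTools and GRCh37 for the series without a role. The labels list total RNA, whereas the study describes poly(A) selection.

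The 3 coding columns were summed and rounded (38716 symbols, of which 34430 matched current and 835 older names). Genes passing edgeR's filterByExpr (13177) were tested in edgeR 4.0.16 (R 4.3.3, limma 3.58.1) with TMM scaling and the quasi-likelihood test, all 9 libraries in 1 fit with condition as the term, and p-values were adjusted by Benjamini-Hochberg over all genes tested at 0.05. CPM used TMM-scaled library sizes. SE is the size of the log2 change divided by the square root of F. Fold bounds against a group without a read used a floor of 3 reads over the group. Intervals and floors cover counting error only. On data simulated for this comparison with 13000 genes, 77 of 100 changes of 1.5-fold and 90 of 100 of 2-fold were recovered, with 9 false calls.

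Genes were named by rule: the 12 largest rises and falls among called genes with at least 5 CPM in the higher group and no overlap, the 5 highest in young and in ICM, HMGB1 and HMGB2, and in each of 67 lists up to 3 rises, 3 falls and the member with the highest level, or the whole list where it had few members. The 5 largest non-coding rises and falls were named likewise. The comparison and the lists were chosen with earlier results of these data known. Promoter windows came from RefSeq (GRCh38.p14), a build other than that of the notes, and were joined by symbol. Alternatives were RLE scaling, library totals, DESeq2 1.42.0, no filter, a mean of at least 50 counts, the replicate number as a block, a threshold of 0.01, CDS reads only, a fit of the compared groups only, and each library left out. A few named genes are not reported here.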

Additional observations from a re-analysis of the deposited data

Results flagged for a closer look

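Outside the summed coding columns, the column of non-coding reads held features that were at or near 0 in the young libraries and clearly present in ICM, and the 5 with the largest rise are given here in CPM of non-coding reads. LOC105369388 had no read in young and a mean of 327.26 in ICM, which made it at least 51.7-fold higher. LOC105379080 had a mean of 3.87 in young and 1424.2 in ICM, and LOC101928994 a mean of 12.9 and 629.07. HAR1B, a non-coding RNA next to a human accelerated region, had no read in young and a mean of 68.015 in ICM (at least 10.8-fold higher). LOC102724934 also had no read in young and a mean of 72.942 in ICM (at least 11.5-fold higher), and its mean of 46.3 in old was not called against ICM in the edgeR test (log2 change 0.64, SE 0.30).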

How the results depend on the processing

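Leaving out 1 library at a time gave 8815 to 9059 genes called in ICM vs young, and the other settings 8139 to 9765. Of 428 named values, 402 kept their direction and call in every setting in which they were tested and 0 reversed. The mean of at least 50 counts, CDS reads only and the fit of the compared groups did not test all of them. Where a mean of at least 50 counts was required, fewer features were tested, and 13 histone cluster members (33 otherwise), 8 interleukins, chemokines and colony stimulating factors (15 otherwise) and 306 non-coding features (733 otherwise) were called. The same filter turned the median log2 change of CDK inhibitors to 0.17, of matrix metalloproteinases and inhibitors to 0.26, of AP-1 and immediate early genes to 0.055 and of prostaglandin genes to 1.54, and CDS reads only turned that of the BCL2 family to 0.16. Scaling moved the median of all genes by at most 0.027 on the log2 scale. Each of these scalings gives relative values, so whether total mRNA changed was not tested. Same-numbered young and ICM libraries deviated together only weakly (r = -0.0012, 0.052 and 0.117, across genes, which are not independent replicates). Replicate 3 had the highest share of reads in the 5′ UTR both in young (12.32%) and in ICM (13.49%). Whether same-numbered libraries shared a batch was not tested. With the replicate block 9409 genes were called and no named call changed.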

Other observations

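Among the non-coding features that fell, in CPM of non-coding reads, LOC107985017 went from a mean of 101 in young to 1.64 in ICM, LOC105378936 from 119 to 3.12 and LOC101927267 from 242 to 8.22. SERTAD4-AS1 had no read in ICM (at least 4.77-fold lower than young) and a mean of 98.9 in old, so that it was low in ICM and high in old cells.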
